A study of Mus musculus with 12 samples.

Results

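Collagens and stromal matrix genes were described in human pancreatic tumors grown in mice, through 10 genes: COL1A1, COL1A2, COL3A1, COL4A1, COL4A2, COL5A1, COL6A1, SPARC, ACTA2 and DCN. They were chosen by name and Ensembl identifier, out of 30832 genes in either of the deposited tables. All 10 had values in AsPC-1 tumors and 9 had values in BxPC-3 tumors. COL1A2 (ENSG00000164692) was the 1 member without BxPC-3 values and was not analysed here in that line. Each table lists genes above 0 in at least 4 of its libraries. The genes did not behave as 1 group: COL6A1 and ACTA2 were higher in AsPC-1 tumors, COL1A1, COL3A1 and COL5A1 were higher in BxPC-3 tumors, and COL4A1, COL4A2, SPARC and DCN had at most 31 reads in any library of either line.

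The libraries came from tumors in the pancreas of mice that carried orthotopic grafts of human pancreatic ductal adenocarcinoma cells of the lines AsPC-1 or BxPC-3. Some mice received arsenic trioxide (ATO), an arsenic compound used against acute promyelocytic leukemia. The groups were AsPC-1 ATO and AsPC-1 control, and BxPC-3 ATO and BxPC-3 control, with 3 libraries each. Every library carries the genotype label WT. The sources used here give no strain, sex or age of the host mice, no dose or schedule of ATO and no treatment of the controls. Each line is an established culture, so a difference between lines compares these lines and not kinds of tumor. The labels do not tie replicates to separate animals, and p-values then reflect only the spread among these libraries, which may be technical.

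In 1 library, labelled BxPC-3 control 3, the members had levels near those of AsPC-1, with 39.8 FPKM of COL6A1 against 0.599 and 1.64 FPKM in the other BxPC-3 control libraries. It was left out of the values and tests below. The BxPC-3 control group therefore had 2 libraries.

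Collagens I, III and V build the fibrils of connective tissue. Collagen IV forms the sheet of basement membranes, and collagen VI forms a beaded network around cells. In pancreatic cancer, fibroblasts and activated stellate cells lay down a dense collagen matrix around the carcinoma cells. In a graft of human cells these stromal cells belong to the mouse, while the deposited tables list only human identifiers. The sources used here do not say how reads from mouse cells were treated, so a value on a human gene may hold reads of mouse origin, and their part in the values was not tested. In tumor pieces, fewer cells of a type and less RNA per cell cannot be told apart. Lists of cell type markers were not analysed here, because the tables give identifiers without names.

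Values are FPKM, which are reads of a gene scaled by its length and by a constant of the library. The whole reads behind them were recovered from their steps and summed to between 11219607 and 19306883 per library. Tests used limma on log2(FPKM + 1) over all genes that reached 1 FPKM in 3 libraries, and called a gene at an adjusted p (Benjamini-Hochberg) under 0.05. Voom with limma on the recovered reads, over genes that reached 1 RPM in 3 libraries, also took in some members under the FPKM filter. RPM is reads of a gene per 1000000 recovered reads of its library.

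**Figure D1:**
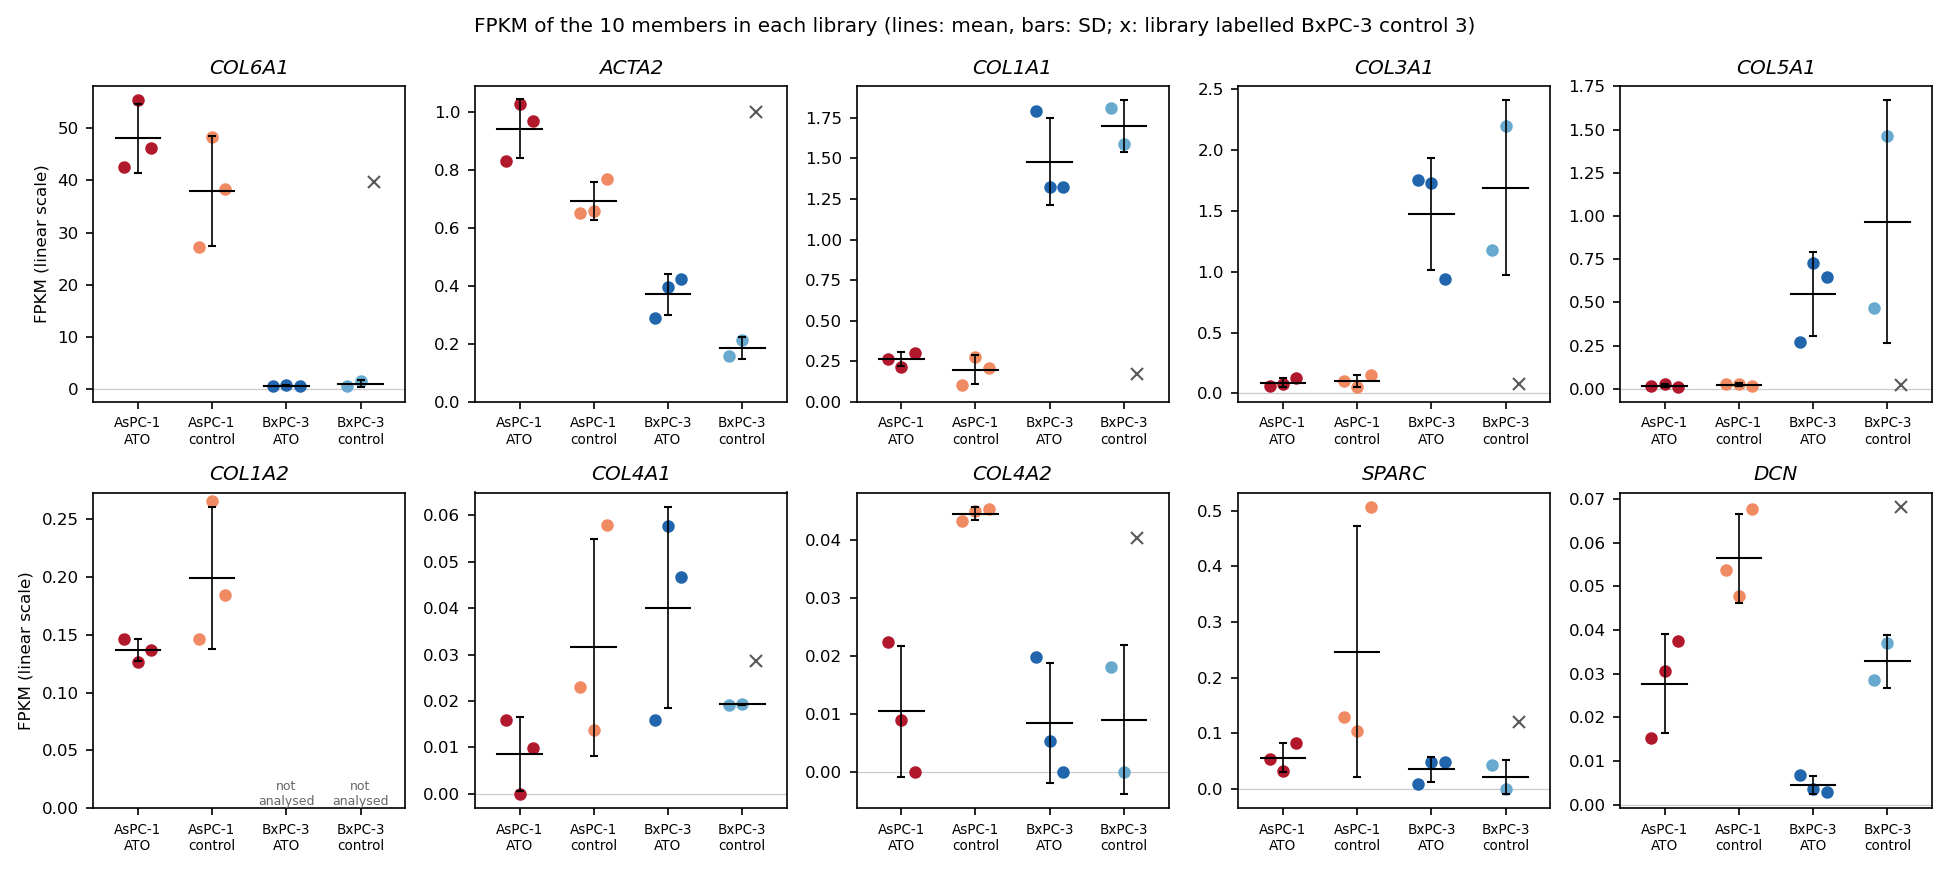
FPKM of each member (linear axis, 1 panel per gene) in each library of the AsPC-1 ATO, AsPC-1 control, BxPC-3 ATO and BxPC-3 control groups; points are libraries, lines the group means, bars the SD, and the cross the library labelled BxPC-3 control 3. COL6A1 stood at 27.3 to 55.3 FPKM in AsPC-1 and 0.599 to 1.64 FPKM in BxPC-3, COL1A1, COL3A1 and COL5A1 were higher in BxPC-3, and the other panels stay at or under 1.03 FPKM.

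In AsPC-1 tumors 1 member, COL6A1, held nearly all the reads of the set. Of the reads on the 9 members with values in both lines, COL6A1 had 97.3%, 97.8% and 96.9% in the ATO libraries and 96.2%, 97.4% and 95.5% in the control libraries of AsPC-1. In BxPC-3 it had 9.71%, 10.95% and 10.99% in the ATO libraries and 8.98% and 15.4% in the control libraries. Reads on COL1A1, COL3A1 and COL5A1 made up most of the rest there.

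By mean FPKM over the 6 AsPC-1 libraries, COL6A1 came first with 43.0 ± 9.58 (SD, n = 6) and ACTA2 second with 0.819 ± 0.157 (SD, n = 6). The ranges of these 2 genes lay apart from each other and from the rest. Below them came COL1A1, COL1A2, SPARC, COL3A1, DCN, COL4A2, COL5A1 and COL4A1, each with a range that overlapped that of its neighbour, at means of 0.229 to 0.0200 FPKM. Over the 5 BxPC-3 libraries the order was COL1A1 with 1.57 ± 0.239 FPKM, COL3A1 with 1.56 ± 0.499, COL6A1 with 0.877 ± 0.435, COL5A1 with 0.716 ± 0.454 and ACTA2 with 0.297 ± 0.114 (SD, n = 5 each). Neighbours among these 5 overlapped in range. A gap followed, and COL4A1, SPARC, DCN and COL4A2 had means of 0.0318 to 0.00868 FPKM.

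COL6A1 (ENSG00000142156) encodes a chain of collagen VI, and in AsPC-1 it had the highest level of all members. It had 42.6, 55.3 and 46.2 FPKM in AsPC-1 ATO tumors and 0.681, 0.804 and 0.659 FPKM in BxPC-3 ATO tumors. In control tumors it had 27.3, 48.3 and 38.4 FPKM in AsPC-1 and 0.599 and 1.64 FPKM in BxPC-3. The lines did not overlap under either treatment. In AsPC-1 the gene stood above 95.5% to 98.4% of the genes in its table, with 2323 to 4614 reads per library, and in BxPC-3 above 36.2% to 55.5%, with 61 to 221 reads. With the 11 libraries brought to 1 scale by median ratios, mean COL6A1 levels in scaled FPKM were 42.6 in AsPC-1 and 0.745 in BxPC-3 under ATO, a 57.2-fold difference, and 38.0 in AsPC-1 and 1.17 in BxPC-3 in controls, a 32.4-fold difference. The control fold rests on unlike BxPC-3 libraries: it was 64.3 without BxPC-3 control replicate 2 and 21.7 without BxPC-3 control replicate 1.

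The log2 fold change of COL6A1 for AsPC-1 over BxPC-3 was 4.64 in ATO tumors (SE 0.21, limma adjusted p = 4.18e-08). In control tumors it was 4.20 (SE 0.24, limma adjusted p = 2.69e-07). The background was large: 59.8% of the 16486 genes tested passed between the lines under ATO, 29.6% higher and 30.1% lower in AsPC-1, and 46.0% passed in controls, 23.2% higher and 22.8% lower. COL6A1 reached the filter through AsPC-1, the line in which it is high, and COL1A1 and COL3A1 through BxPC-3. No count over these 3 members, and no p of theirs on FPKM, is therefore read as support. Without a test, 28.6% of 23445 genes lay higher in all AsPC-1 than in all BxPC-3 libraries under ATO and 28.0% lay lower, and in controls 30.6% lay higher and 29.9% lower.

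The fibrillar collagen genes COL1A1, COL3A1 and COL5A1 had the opposite order. COL1A2, also a fibrillar collagen gene, had no BxPC-3 values, so its order between the lines is not given. COL1A1 (ENSG00000108821) encodes a chain of collagen I, and had 0.265, 0.216 and 0.302 FPKM in AsPC-1 ATO tumors and 1.79, 1.33 and 1.32 FPKM in BxPC-3 ATO tumors. In control tumors it had 0.102, 0.279 and 0.209 FPKM in AsPC-1 and 1.81 and 1.59 FPKM in BxPC-3. Every BxPC-3 library lay above every AsPC-1 library, with 276 to 406 reads against 16 to 49. The log2 fold change was -1.03 in ATO tumors (SE 0.12, limma adjusted p = 2.7e-05) and -1.20 in controls (SE 0.13, limma adjusted p = 3.14e-05). On the common scale its mean was 6.51-fold higher in BxPC-3 than in AsPC-1 under ATO and 8.92-fold higher in controls. The log2 values are smaller because 1 was added to each FPKM.

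COL3A1 (ENSG00000168542) encodes the chain of collagen III, which is found beside collagen I in many soft tissues. It had 0.0573, 0.0807 and 0.130 FPKM in AsPC-1 ATO tumors and 1.75, 1.73 and 0.939 FPKM in BxPC-3 ATO tumors. In control tumors the values were 0.101, 0.0493 and 0.151 FPKM in AsPC-1 and 1.18 and 2.19 FPKM in BxPC-3. The lines were again apart, and the AsPC-1 values rest on 6 to 13 reads per library. The log2 fold change was -1.21 in ATO tumors (SE 0.18, limma adjusted p = 0.000219) and -1.29 in controls (SE 0.20, limma adjusted p = 0.000442). Its mean on the common scale was 19.3-fold higher in BxPC-3 than in AsPC-1 under ATO and 17.2-fold higher in controls, or 11.4-fold without BxPC-3 control replicate 2.

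COL5A1 (ENSG00000130635) encodes a chain of collagen V, which takes part in starting collagen fibrils. It had 0.0174, 0.0281 and 0.00717 FPKM in AsPC-1 ATO tumors and 0.271, 0.730 and 0.647 FPKM in BxPC-3 ATO tumors. In control tumors it had 0.0280, 0.0300 and 0.0141 FPKM in AsPC-1 and 0.469 and 1.46 FPKM in BxPC-3. AsPC-1 libraries held 1 to 6 reads and BxPC-3 libraries 70 to 412, with no overlap. The gene lay under the FPKM filter, and it reached the RPM filter only through BxPC-3, the line in which it is high, so its p is not read as support. With voom on the recovered reads its log2 fold change for AsPC-1 over BxPC-3 was -4.88 in ATO tumors (SE 0.999, limma adjusted p = 0.000588) and -5.02 in controls (SE 0.93, limma adjusted p = 0.000382). In that fit 63.0% of 17366 genes passed under ATO, 31.1% higher and 31.9% lower in AsPC-1, and 50.9% passed in controls, 25.2% higher and 25.7% lower.

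ACTA2 (ENSG00000107796) encodes smooth muscle actin, a protein of muscle cells and a marker of myofibroblasts. Its level was at most 1.03 FPKM and higher in AsPC-1. It had 0.831, 1.03 and 0.971 FPKM in AsPC-1 ATO tumors and 0.291, 0.397 and 0.425 FPKM in BxPC-3 ATO tumors. In control tumors it had 0.653, 0.658 and 0.770 FPKM in AsPC-1 and 0.159 and 0.214 FPKM in BxPC-3. The lines did not overlap in FPKM. The values rest on 29 to 39 reads per AsPC-1 library and 9 to 33 per BxPC-3 library, and these raw read counts do overlap. With voom the log2 fold change for AsPC-1 over BxPC-3 was 1.19 in ATO tumors (SE 0.32, limma adjusted p = 0.00442) and 1.84 in controls (SE 0.43, limma adjusted p = 0.00234). Actin genes are close copies of each other and the strand of the libraries is not stated, so these few reads may come partly from other actins or from an antisense gene, which was not tested.

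**Figure D2:**
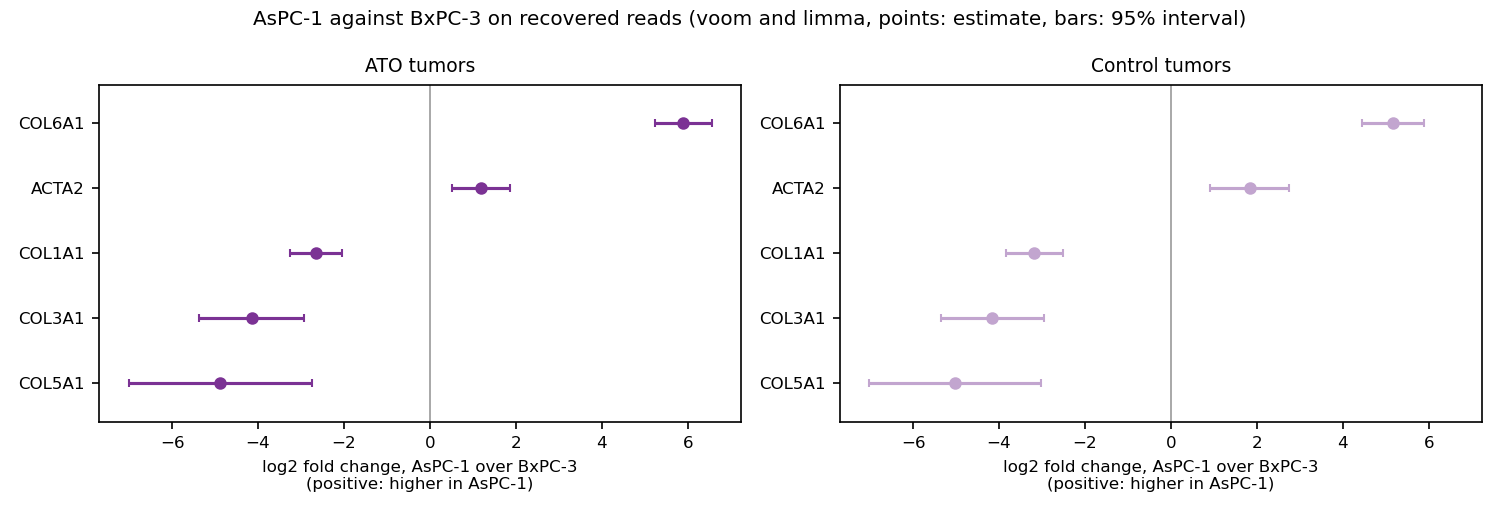
Log2 fold changes (horizontal axis, AsPC-1 over BxPC-3) of the members tested with voom on recovered reads, in ATO tumors (left, 3 against 3 libraries) and control tumors (right, 3 against 2); points are estimates and bars 95% intervals. COL6A1 (5.90 and 5.16) and ACTA2 (1.19 and 1.84) lie above 0, and COL1A1, COL3A1 and COL5A1 lie below 0 in both panels. COL3A1 and COL5A1 reached the RPM filter only through BxPC-3, the line in which they are high. Their estimates and intervals are therefore not read as support.

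The direction of each of these 5 line differences was the same on the deposited scale and on recovered reads. The reads were recovered from the same FPKM values, so this is not separate support. With voom, COL6A1 had a log2 fold change of 5.90 in ATO tumors (SE 0.31, limma adjusted p = 1.3e-09) and 5.16 in controls (SE 0.34, limma adjusted p = 1.72e-08). With the library labelled BxPC-3 control 3 kept in its group, 0 of 16633 genes passed between lines in control tumors in limma (5115 had p under 0.05 unadjusted), and 0 of 17498 with voom. The control values were then 2.80 for COL6A1 (limma adjusted p = 0.1), -0.79 for COL1A1 (limma adjusted p = 0.107) and -0.85 for COL3A1 (limma adjusted p = 0.119). Under ATO 8524 of 16633 genes passed in limma with that library. These 3 genes were among them, at limma adjusted p-values of 0.00487, 0.0122 and 0.0117 in the same order. As above, these p-values are not read as support. With voom and that library, COL5A1 and ACTA2 no longer passed: their limma adjusted p-values were 0.0716 and 0.0588 under ATO and 0.253 and 0.165 in controls. The tables may have been scaled separately by the authors, which is why the line tests used a common scale.

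COL1A2 encodes the partner chain of COL1A1 in collagen I, and was analysed in AsPC-1 only. It had 0.146, 0.127 and 0.137 FPKM in ATO tumors and 0.146, 0.266 and 0.184 FPKM in control tumors, on 18 to 25 reads and 26 to 53 reads. The ratio of COL1A2 to COL1A1 in FPKM was 0.550, 0.587 and 0.452 in ATO libraries and 1.43, 0.952 and 0.880 in control libraries. These ratios, chosen after their values were seen, did not overlap between the treatments. They rest on 16 to 53 reads per gene and library.

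The ratio of COL3A1 to COL1A1 varied within every group. It was 0.216, 0.374 and 0.429 in AsPC-1 ATO libraries and 0.991, 0.177 and 0.721 in AsPC-1 control libraries. In BxPC-3, where it rests on at least 153 reads per gene, it was 0.976, 1.30 and 0.710 in ATO libraries and 0.651 and 1.38 in control libraries. The treatments overlapped in both lines.

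COL4A1 (ENSG00000187498) and COL4A2 (ENSG00000134871), neighbouring genes for the paired chains of collagen IV, were near 0 in both lines. COL4A1 had 2, 0 and 1 reads in AsPC-1 ATO libraries and 3, 2 and 6 in AsPC-1 control libraries. In BxPC-3 it had 3, 10 and 10 reads in ATO libraries and 3 and 4 in control libraries. COL4A2 had 3, 1 and 0 reads in AsPC-1 ATO libraries and 6, 7 and 5 in AsPC-1 control libraries, and in BxPC-3 it had 4, 1 and 0 reads in ATO libraries and 3 and 0 in control libraries. All these levels were at most 0.0579 FPKM. A count of 0 allows up to 3 reads (the two-sided Poisson interval reaches 3.69), or 0.0288 FPKM of COL4A1 in AsPC-1 ATO replicate 2, so a difference within a few reads was not detectable at this depth.

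SPARC (ENSG00000113140), a secreted protein that binds collagen, was also low. It had 0.0539, 0.0325 and 0.0831 FPKM in AsPC-1 ATO tumors and 0.130, 0.104 and 0.507 FPKM in AsPC-1 control tumors, from 4, 2 and 5 reads and from 10, 9 and 31 reads. AsPC-1 control replicate 3 alone held 31 of the 50 control reads. In BxPC-3 it had 1, 5 and 6 reads in ATO libraries and 4 and 0 in control libraries. The highest BxPC-3 value was 0.0489 FPKM. In control tumors SPARC and COL4A2 were higher in every AsPC-1 library than in every BxPC-3 library. So were 30.6% of 23445 genes on the common scale. Under ATO the lines overlapped for both SPARC and COL4A2.

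DCN (ENSG00000011465) encodes decorin, a small proteoglycan that coats collagen fibrils. It had 3, 5 and 6 reads in AsPC-1 ATO libraries and 11, 11 and 11 in AsPC-1 control libraries, or 0.0152, 0.0306 and 0.0375 FPKM and 0.0537, 0.0479 and 0.0677 FPKM. In BxPC-3 it had 2, 1 and 1 reads in ATO libraries and 7 and 12 in control libraries, or 0.00674, 0.00367 and 0.00298 FPKM and 0.0286 and 0.0371 FPKM. DCN lay lower in every ATO library than in every control library of its line, also on RPM. Between the lines, DCN was higher in every AsPC-1 library than in every BxPC-3 library under ATO and in controls, on the common scale. So were 28.6% of 23445 genes under ATO and 30.6% in controls. The raw control reads of DCN overlapped between the lines. For ATO the two-sided exact permutation p was 0.1 in each line, the smallest that 3 against 3 or 3 against 2 libraries allow. Among the 23445 genes in both tables, 0.533% lay lower in all ATO libraries in both lines on FPKM and 0.789% on RPM. DCN was 1 of 9 members looked at in both lines. These shares cover genes of all levels, while DCN had 1 to 12 reads per library. They do not show how rare this order is among genes of few reads. The library labelled BxPC-3 control 3 had 15 reads of DCN.

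**Figure D3:**
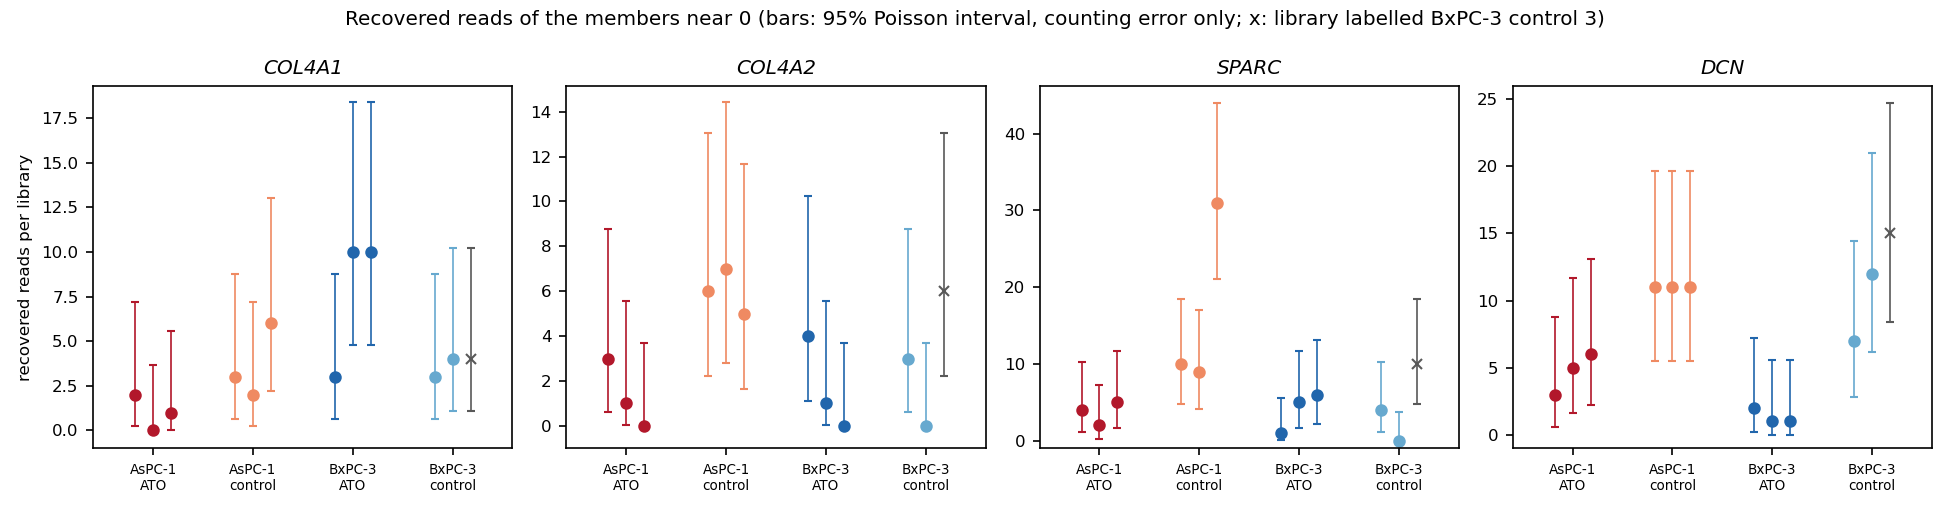
Recovered reads per library (vertical axis, linear) of COL4A1, COL4A2, SPARC and DCN in AsPC-1 ATO, AsPC-1 control, BxPC-3 ATO and BxPC-3 control; bars are 95% Poisson intervals, which cover counting error only, and the cross is the library labelled BxPC-3 control 3. DCN had 3 to 6 reads in AsPC-1 ATO against 11 in each AsPC-1 control library, and SPARC reached 31 reads in 1 AsPC-1 control library.

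COL4A1, COL4A2, SPARC and DCN together had 12, 8 and 12 reads in AsPC-1 ATO libraries and 30, 29 and 53 in AsPC-1 control libraries. In BxPC-3 they had 10, 17 and 17 reads in ATO libraries and 17 and 16 in control libraries. In AsPC-1 the ATO sums lay below all the control sums. In BxPC-3 the treatments overlapped. In RPM these sums were 0.531 to 0.857 in AsPC-1 ATO and 1.84 to 4.72 in AsPC-1 control, and 0.546 to 1.10 in BxPC-3 ATO and 0.829 to 1.06 in BxPC-3 control. No test is given for a sum over chosen members. In RPM 20.6% of all genes lay lower in every ATO library of AsPC-1. COL3A1 and COL5A1, also at few reads in AsPC-1, were not in the sum. COL3A1 had 6, 7 and 11 reads in AsPC-1 ATO libraries and 11, 6 and 13 in AsPC-1 control libraries. COL5A1 had 3, 4 and 1 reads and 5, 6 and 2 reads, and both genes overlapped between the treatments.

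ATO against control was then compared within each line, which asks whether the matrix genes moved with treatment. No member passed in either line. In AsPC-1, limma called 0 of 15287 genes (0%), while 3210 had p under 0.05 before adjustment. With voom 43 of 15707 genes passed, or 0.274% (0.255% higher and 0.0191% lower in ATO), and none of the 4 members tested in that fit (COL1A1, COL1A2, COL6A1 and ACTA2) was among them. In BxPC-3, limma called 0 of 14633 genes (0%), while 758 had p under 0.05 before adjustment. Voom called 0 of 16202 there (933 before adjustment).

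COL6A1 was the only member that reached the FPKM filter in AsPC-1. It averaged 48.0 ± 6.54 FPKM in ATO tumors and 38.0 ± 10.5 FPKM in control tumors (SD, n = 3 each), and the groups overlapped. Its log2 fold change was 0.36 (95% interval -0.17 to 0.88, limma adjusted p = 0.363), where the median over all genes tested was 0.12. It was 0.14 without control replicate 1 and 0.55 without control replicate 2 (limma adjusted p = 0.735 and 0.221). With median-ratio factors, which bring that median to -0.028, it was 0.17. Its mean was 229 RPM in ATO tumors and 231 RPM in control tumors. With voom, COL6A1 had 0.21 (95% interval -0.24 to 0.65, limma adjusted p = 0.544), ACTA2 0.28 (95% interval -0.36 to 0.92, limma adjusted p = 0.564), COL1A1 0.32 (-0.50 to 1.13, adjusted p = 0.613) and COL1A2 -0.67 (-1.42 to 0.081, adjusted p = 0.248).

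In BxPC-3, COL1A1 and COL3A1 reached the FPKM filter. COL1A1 averaged 1.48 ± 0.269 FPKM in ATO tumors (SD, n = 3) and 1.70 ± 0.159 in control tumors (SD, n = 2), with a log2 fold change of -0.13 (95% interval -0.55 to 0.30, limma adjusted p = 0.91). COL3A1 averaged 1.47 ± 0.461 FPKM in ATO tumors (SD, n = 3) and 1.69 ± 0.718 in control tumors (SD, n = 2), with -0.11 (95% interval -0.75 to 0.52, limma adjusted p = 0.947). Both groups overlapped for both genes. With voom, COL5A1 had -0.81 (95% interval -2.10 to 0.48, limma adjusted p = 0.837), COL6A1 -0.55 (-1.53 to 0.43, adjusted p = 0.842) and ACTA2 0.93 (-0.16 to 2.03, adjusted p = 0.827). ACTA2 reached the RPM filter only through the ATO libraries, at 1.09 to 1.74 RPM against 0.559 and 0.829 RPM in controls. Its estimate and p are therefore not read as support. Without control replicate 2 the voom values of COL5A1 and COL6A1 were 0.099 and 0.25, and without control replicate 1 they were -1.58 and -1.24. With the library labelled BxPC-3 control 3 they were 0.79 and -2.13, and that of ACTA2 was 0.21. These intervals are wide, and a miss of the threshold does not show that the levels were alike.

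**Figure D4:**
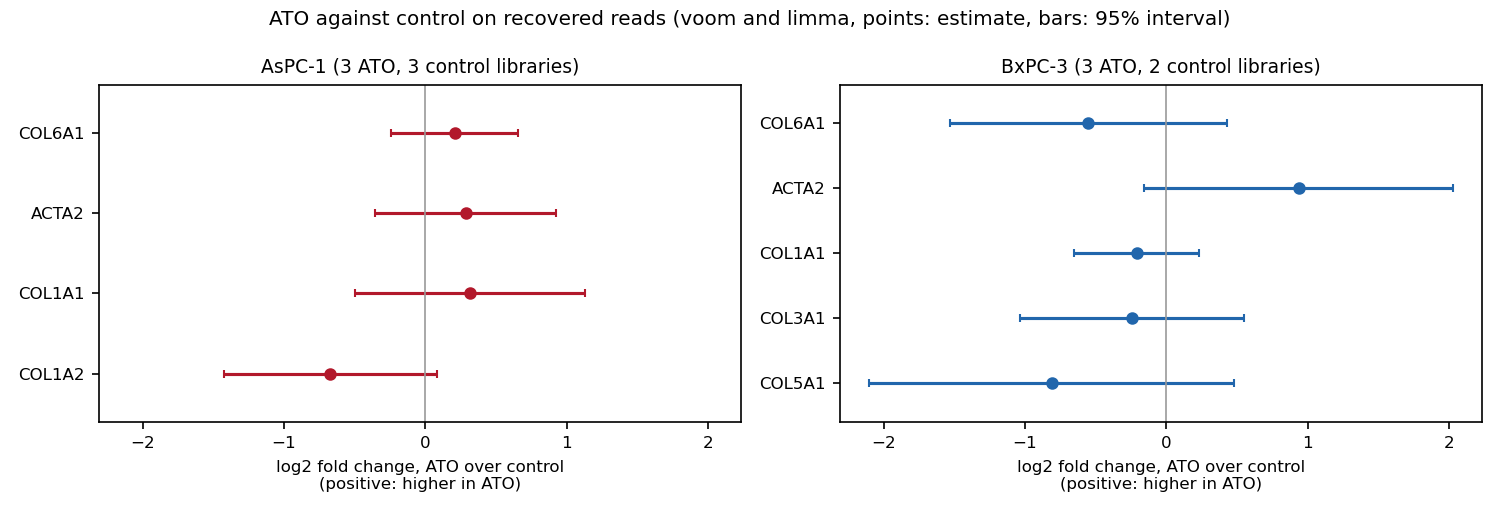
Log2 fold changes (horizontal axis, ATO over control) of the members tested with voom on recovered reads in AsPC-1 (left) and BxPC-3 (right); points are estimates and bars 95% intervals. Every interval covers 0, from COL5A1 at -0.81 to ACTA2 at 0.93, both in BxPC-3. In BxPC-3, ACTA2 reached the RPM filter only through the ATO libraries.

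The libraries of the treatments were also compared without a model, by whether they overlapped. In AsPC-1, COL1A2, COL4A2, SPARC and DCN were lower in all ATO libraries than in all control libraries, 4 of 10 members, beside 6.21% of the 26820 genes in the table. ACTA2 was higher in all ATO libraries, 1 of 10 members beside 14.2% of all genes. In RPM 5 of 10 members were lower, now with COL4A1, beside 20.6% of genes, and none was higher, beside 4.75%. COL1A2 was apart in FPKM only narrowly, with 0.146 FPKM both in its highest ATO library and in its lowest control library. The values of the lower 5 rest on 0 to 53 reads, and each exact permutation p was 0.1 on RPM, the smallest 3 against 3 libraries allow.

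In BxPC-3, DCN was lower in all ATO libraries, 1 of 9 members beside 8.63% of 27457 genes on FPKM and 5.65% on RPM, and ACTA2 was higher in all ATO libraries, 1 of 9 beside 11.5% on FPKM and 16.7% on RPM. ACTA2 had 20, 25 and 33 reads in ATO libraries and 9 and 16 in control libraries. Its two-sided exact permutation p was 0.2. ACTA2 thus lay higher in ATO on FPKM in both lines, but in AsPC-1 the groups overlapped on RPM, with 2.35, 2.59 and 2.57 RPM in ATO libraries and 2.25, 2.23 and 2.58 RPM in control libraries.

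The change with ATO was also compared between the lines. Limma called the line by treatment term in 0 of 16486 genes (2537 before adjustment), and voom in 0 of 17366 (2812 before adjustment). It was 0.45 for COL6A1 (95% interval -0.25 to 1.15, limma adjusted p = 0.47), 0.17 for COL1A1 (-0.22 to 0.55, adjusted p = 0.615) and 0.081 for COL3A1 (-0.52 to 0.68, adjusted p = 0.886). A positive value means a higher change in AsPC-1. The COL6A1 term was 0.051 without BxPC-3 control replicate 2 and 0.85 without BxPC-3 control replicate 1, and with the library labelled BxPC-3 control 3 it was 1.84, or 2.38 with voom.

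The BxPC-3 control replicates differed from each other in COL5A1, COL6A1 and COL3A1 by more than the treatment means did. Control replicate 2 had 21.3 RPM of COL5A1 and control replicate 1 had 6.21, a 3.43-fold difference. For COL6A1 the values were 11.4 and 3.79 RPM, or 3.02-fold, and for COL3A1 19.5 and 9.51, or 2.05-fold. COL1A1 was alike in both, at 20.3 and 21.1 RPM. Among 15059 genes the median ratio of these libraries in FPKM was 0.969, and the ratios of COL5A1, COL6A1 and COL3A1 stood above those of 99.6%, 99.3% and 98.1% of genes. Those genes reached 1 FPKM in 3 BxPC-3 libraries, with the library labelled BxPC-3 control 3 counted. COL5A1 and COL6A1 did not reach that filter, so they were ranked against genes of higher level. Among the BxPC-3 ATO libraries COL5A1 had 3.82, 11.2 and 9.95 RPM, with ATO replicate 1 the lowest. COL1A1 was highest in that library, at 22.2 RPM, and COL3A1 was lowest in ATO replicate 3, at 8.79 RPM.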

How the data were processed

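The 12 libraries were prepared, per the labels' protocols, with the SMARTer mRNA kit on total RNA. The authors deposited 1 table of FPKM values per line, scaled by gene length and a library constant; the unit is stated nowhere and was read from the values. The submitters' processing notes name the builds GRCm38, mm10 and hg38 with no role. The aligner, counter, annotation and origin of the library constant were not given in the sources used here.

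Members and lists were chosen with earlier results of these data known. A space inside 1 value was removed. Reads were recovered as value times length over a library constant (Python 3.11.15, numpy 2.4.6, pandas 2.3.3, whole within 0.05 reads, lengths up to 30000 bases), and 99.9% of values came out whole. The sum of recovered reads was 72.6% to 118% of the total that the constant implies, so fold changes are also given on reads. In AsPC-1 it was 86.3% to 88.7% in control libraries and 105% to 118% in ATO libraries. FPKM was thus raised relative to RPM in every AsPC-1 ATO library. In BxPC-3 it was 72.6% to 79.3% in ATO libraries and 84.5% and 76.7% in control replicates 1 and 2. Tests used R 4.3.3 with limma 3.58.1 and a trended eBayes, and line contrasts used 1 model of 11 libraries scaled by median ratios over genes above 0 in each. Single values were compared by two-sided exact permutation tests. The limma and voom fits and the recovery of reads were tested on simulated data. Poisson intervals cover counting error only. All members are named by rule. As 0 identifiers matched the 55450 of the name table at hand, the other matrix lists, the marker lists and the genes of like pattern were not analysed here, and no sequence or position is given. Alternatives were median-ratio or quantile scaling, no filter, a pseudocount of 0.1, a replicate block, voom, the library labelled BxPC-3 control 3, and leaving out each library. Voom with that library or without each library, RPM and folds without each library were added after the data were seen.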

Additional observations from a re-analysis of the deposited data

Results flagged for a closer look

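The library labelled BxPC-3 control 3 was not used in the comparisons, and 2 members stood there above the level of the other BxPC-3 control libraries beyond counting error. COL6A1 had 39.8 FPKM, from 3637 reads, against 0.599 and 1.64 FPKM in control replicates 1 and 2. ACTA2 had 1.0016 FPKM, from 51 reads, against 0.159 and 0.214 FPKM. COL1A1, COL3A1 and COL5A1 stood below those libraries, with 0.173, 0.0772 and 0.0209 FPKM in this order.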

How the results depend on the processing

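Limits are small groups, few reads for the members near 0 and an unknown origin of reads. The AsPC-1 count of genes changed with ATO, 0 in limma, was 1 with median-ratio factors, 43 with voom and 1193 with a replicate block. Over limma fits that left out a library it was 0 to 1, with 1 without ATO replicate 1. Over voom fits that left out a library it was 0 to 2014, with 2014 without ATO replicate 1. No member passed with the block: COL6A1 in AsPC-1 had an adjusted p of 0.148. The BxPC-3 count was 0 to 6 in limma, with 6 without ATO replicate 1, and 1381 with voom without ATO replicate 1. The count for the difference between lines in the change with ATO was 0 to 470 in limma, with 470 without BxPC-3 ATO replicate 1. With voom it was 1296 without BxPC-3 ATO replicate 1. The count between lines in control tumors was 7584, and 0 with the library labelled BxPC-3 control 3 in limma and in voom. For these the cause was not tested.

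Deviations from the group means of same-numbered libraries had correlations of 0.331, 0.200 and 0.0814 in AsPC-1, and 0.146 and 0.0591 in BxPC-3. The replicate numbers are not stated to pair libraries, and 0.0814 in AsPC-1 and 0.0591 in BxPC-3 are under 0.1. The libraries were therefore not treated as pairs. In AsPC-1, ATO replicate 2 was nearest to control replicate 3. With 2 control libraries in BxPC-3 their deviations mirror each other, so the BxPC-3 values cannot decide on pairing. The block left the BxPC-3 count and the count for the difference between lines at 0.

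Signs turned for members that did not pass. With the library labelled BxPC-3 control 3 the ATO change in BxPC-3 was 0.27 for COL1A1 and 0.32 for COL3A1, and 0.77 and 1.09 with voom. The line by treatment term was then -0.25 for COL1A1 and -0.36 for COL3A1, and -0.54 and -1.39 with voom. With a replicate block the COL3A1 values were 0.053 for ATO in BxPC-3 and -0.066 for the term. Leaving out a library gave a range for ATO on COL3A1 in BxPC-3 of -0.39 to 0.16, and for the term of -0.23 to 0.40. With voom and the library labelled BxPC-3 control 3, COL5A1 had 0.79 for ATO in BxPC-3 and -1.53 for the term, and ACTA2 had 0.048 for the term. Voom without each library ranged from -0.031 to 0.63 for ATO on COL1A1 in AsPC-1, from -1.58 to 0.099 for ATO on COL5A1 and from -1.24 to 0.25 for ATO on COL6A1 in BxPC-3, and from -0.77 to 0.96 for the COL5A1 term. That term was -0.13 without AsPC-1 control replicate 3, -0.17 without AsPC-1 ATO replicate 2 and -0.39 without BxPC-3 ATO replicate 1. Of 330 values for members under alternatives, 295 kept their direction and side of the threshold and 24 turned sign. Another 11 weakened: 10 calls between lines with the library labelled BxPC-3 control 3, and the count of members higher in AsPC-1 ATO, which was 0 on RPM.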
